A study of Saccharomyces cerevisiae with 6 samples.

Results

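Aminoacyl-tRNA synthetases are the enzymes that load each transfer RNA (tRNA) with its amino acid. The budding yeast Saccharomyces cerevisiae makes tRNA loading enzymes for 2 places of protein synthesis, the cytosol and the mitochondrial matrix, and nuclear genes encode both sets. The members were chosen by gene name from a list of 35 genes, 21 for cytosolic and 14 for mitochondrial enzymes, through the platform's gene annotation. Of these, 34 of the 5449 yeast genes tested were measured, 20 cytosolic and 14 mitochondrial, each by 1 probe set, which is a group of array probes read as 1 value. The cysteine enzyme YNL247W was not analysed here. All 34 had a mean signal above the 95th percentile of probe sets that are not listed as S. cerevisiae genes, 6.10 on the log2 scale, so none is dim as a mean over all arrays.

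The study read 6 RNA samples on 6 one-colour Affymetrix arrays, 3 labelled wild type (WT) and 3 labelled gpm1 mutant, a knock-out of the glycolytic enzyme gene for phosphoglycerate mutase by the series' title. All 6 were batch cultures on ethanol and glycerol, carbon sources that yeast uses by respiration, and neither the strain background nor the way the gene was removed is stated in the labels. Nothing in the labels ties the arrays of a group to separate cultures. The p-values therefore measure only the spread among these arrays, which may be technical. Equal amounts of total RNA were labelled, so a smaller share of a transcript and a changed amount of RNA per cell cannot be told apart.

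Many amino acids have a pair of enzymes, with 1 gene for the cytosol and another for mitochondria. Mitochondrial enzymes serve the small set of respiratory chain proteins that mitochondria make themselves, and loss of such an enzyme usually stops growth on ethanol or glycerol. A few genes, among them ALA1, GRS1, HTS1 and VAS1, give both forms of an enzyme from alternative start codons and are counted here with the cytosolic set. No glutamine enzyme is found among the mitochondrial ones, because yeast mitochondria make that loaded tRNA by converting a glutamate that was loaded first.

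The labels were first checked with the deleted gene. GPM1 was 5.16, 5.12 and 5.17 on the arrays labelled WT, near the background median of 5.12, and 12.51, 12.48 and 11.82 on those labelled gpm1 (limma log2 difference 7.12, SE 0.20, adjusted p = 8.15e-05, and p = 0.1 by an exact two-sided permutation test, the smallest that 3 against 3 arrays allow). It thus went against the labels on all 6 arrays, and every direction below compares the groups as labelled and says nothing of the genotype. The arrays labelled gpm1 also differed among themselves. The median SD over genes was 0.248 among them and 0.0484 among those labelled WT, and the first principal component, 73.8% of the variance, placed labelled gpm1 replicates 1, 2 and 3 at 33.3, 20.1 and -7.29 and the arrays labelled WT between -15.9 and -14.6. Because of this, each result is given for each array labelled gpm1, and the fit is also given without replicate 3.

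With all 6 arrays, 0 of the 20 cytosolic and 0 of the 14 mitochondrial synthetase genes passed the limma threshold, an adjusted p of 0.05 over all genes, where 0.807% of all genes passed (0.0184% higher, 0.789% lower). An unadjusted limma p under 0.05 was reached by 9 cytosolic genes, all higher in the arrays labelled gpm1, and by 0 mitochondrial genes. Of all 5449 genes, 1223 reached this limit in either direction, 652 of them (12.0% of all genes) as higher. With limma's estimated array weights 16 of the 34 synthetase genes passed, 12 cytosolic as higher and 4 mitochondrial as lower. In that fit 31.8% of all genes passed in either direction, 871 of the 5449 as higher and 861 as lower. Taken as labelled gpm1 minus labelled WT, the median log2 difference was 0.27 over the cytosolic genes, -0.19 over the mitochondrial genes and 0.019 over all genes tested. Of the cytosolic genes 18 had a difference above 0, and of the mitochondrial genes 2 did, where 52.4% of all genes did.

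The 2 sets differed most in how they lay on the separate arrays. In labelled gpm1 replicate 1 the median departure from the labelled WT mean was 0.21 for the cytosolic and -0.87 for the mitochondrial genes. In replicate 2 these medians were 0.54 and 0.024. In replicate 3 the order was turned, with 0.19 for the cytosolic and 0.34 for the mitochondrial genes. The median over all genes was 0.053, -0.0060 and 0.015 on replicates 1, 2 and 3.

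**Figure D1:**
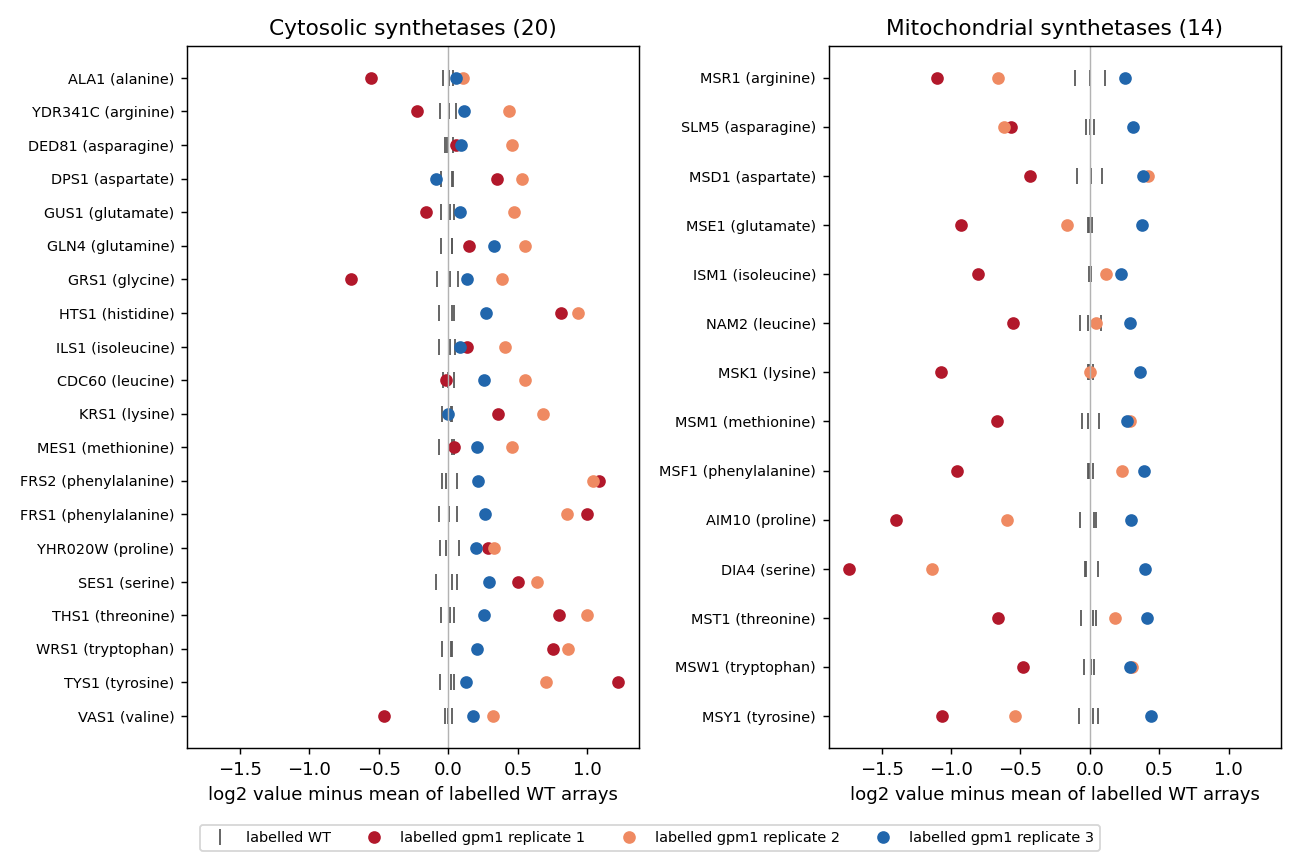
Each row is 1 synthetase gene with its amino acid, and the x axis is the log2 value on an array minus the mean of the 3 arrays labelled WT; ticks are the arrays labelled WT and coloured points are the 3 arrays labelled gpm1. All 14 mitochondrial genes lie left of the ticks in replicate 1 and right of them in replicate 3, and all 20 cytosolic genes lie right of them in replicate 2.

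The count of genes outside the range of the arrays labelled WT shows the same arrangement. These counts were chosen after the values were seen and are given as a description. In replicate 1 all 14 mitochondrial genes lay below all 3 arrays labelled WT, as did 5 of the 20 cytosolic genes and 41.5% of all genes, while 14 cytosolic genes lay above them, as did 50.3% of all genes. In replicate 3 all 14 mitochondrial genes lay above all 3 arrays labelled WT, as did 18 cytosolic genes and 42.5% of all genes, and 1 cytosolic gene lay below them, where 34.5% of all genes did. Both held together for 14 of 14 mitochondrial genes, for 5 of 20 cytosolic genes and for 16.1% of all genes. In replicate 2 all 20 cytosolic genes lay above the arrays labelled WT, as did 6 of the 14 mitochondrial genes and 44.3% of all genes, and another 6 mitochondrial genes lay below, where 45.3% of all genes did. Since all 20 were above on replicate 2, the 14 cytosolic genes above on replicate 1 were necessarily above on both, where 35.1% of all genes were.

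The groups did not overlap, with all 3 arrays labelled gpm1 above all 3 labelled WT, for 12 of the 20 cytosolic genes, against 19.2% of all genes. This was so for 0 mitochondrial genes. No synthetase gene of either set had all 3 arrays labelled gpm1 below all 3 labelled WT, against 15.4% of all genes.

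Among the cytosolic enzymes, both subunits of the phenylalanine enzyme had the largest differences. FRS2 (YFL022C), the alpha subunit gene, was 9.39, 9.47 and 9.36 on the arrays labelled WT and 10.49, 10.45 and 9.62 on labelled gpm1 replicates 1, 2 and 3. Its log2 difference was 0.78 (SE 0.24, limma adjusted p = 0.196). FRS1 (YLR060W), the beta subunit gene, was 9.97, 10.10 and 10.04 against 11.04, 10.90 and 10.30, a difference of 0.71 (SE 0.20, adjusted p = 0.191). Both subunit genes were high on replicates 1 and 2 and only a little above the arrays labelled WT on replicate 3, and the groups did not overlap for either.

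The genes for the threonine, tyrosine, histidine and tryptophan enzymes had differences of about the same size. THS1 (YIL078W), for the threonine enzyme, was 10.06, 10.15 and 10.12 on the arrays labelled WT and 10.91, 11.11 and 10.37 on those labelled gpm1, a difference of 0.68 (SE 0.19, adjusted p = 0.192). TYS1 (YGR185C), for the tyrosine enzyme, was 10.28, 10.38 and 10.36 against 11.56, 11.04 and 10.46, a difference of 0.68 (SE 0.27, adjusted p = 0.214). The groups did not overlap for THS1 or TYS1, and replicate 3 was the array nearest to those labelled WT for both. HTS1 (YPR033C), whose gene gives the histidine enzyme of both compartments, was 9.87, 9.96 and 9.98 against 10.75, 10.87 and 10.21, a difference of 0.67 (SE 0.18, adjusted p = 0.186). WRS1 (YOL097C), for the tryptophan enzyme, was 9.19, 9.12 and 9.20 against 9.93, 10.03 and 9.38, a difference of 0.61 (SE 0.18, adjusted p = 0.196). As for the phenylalanine genes, no array labelled gpm1 fell within the range of those labelled WT for HTS1 or WRS1.

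SES1 (YDR023W), which encodes the cytosolic serine enzyme, had the smallest p of all members. The arrays labelled WT read 10.02, 10.14 and 10.17 and those labelled gpm1 10.61, 10.75 and 10.40, a log2 difference of 0.48 (SE 0.12, adjusted p = 0.169). YHR020W, for the proline enzyme, had the narrowest spread among the arrays labelled gpm1, with 9.81, 9.94 and 9.85 on the arrays labelled WT and 10.15, 10.19 and 10.07 on those labelled gpm1 (SD 0.064, n = 3), a difference of 0.27 (SE 0.087, adjusted p = 0.196). On replicate 3 SES1 stood 0.29 and YHR020W 0.20 above the labelled WT mean, and the groups did not overlap for either gene.

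The other cytosolic genes had differences between -0.13 and 0.34. GLN4, for the glutamine enzyme, and KRS1, for the lysine enzyme, both stood at 0.34, and the isoleucine enzyme gene ILS1 at 0.21. Their pattern was not the same, since GLN4 was above the arrays labelled WT on all 3 arrays labelled gpm1 while KRS1 was 8.73 and 9.05 on replicates 1 and 2 and 8.37 on replicate 3, against 8.39, 8.32 and 8.40. DPS1, for the aspartate enzyme, was the 1 cytosolic gene below all arrays labelled WT on replicate 3, at 10.60 against 10.64, 10.72 and 10.72, and stood at 11.05 and 11.22 on replicates 1 and 2. CDC60, for the leucine enzyme, MES1, for the methionine enzyme, and DED81, for the asparagine enzyme, differed by 0.26, 0.24 and 0.20. Their highest value among the arrays labelled gpm1 was on replicate 2 in each case. CDC60 read 9.71, 10.28 and 9.98 on those arrays against 9.69, 9.77 and 9.73 on the arrays labelled WT. MES1 read 9.18, 9.60 and 9.35 against 9.07, 9.18 and 9.17, and DED81 read 10.83, 11.23 and 10.86 against 10.75, 10.76 and 10.81. ILS1 read 10.14, 10.42 and 10.09 against 9.94, 10.06 and 10.02. Of these 4 genes CDC60 alone overlapped with the arrays labelled WT, on replicate 1.

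A group of 5 cytosolic genes lay below the arrays labelled WT on replicate 1 and above them on replicates 2 and 3. They are ALA1 for the alanine enzyme, GRS1 for the glycine enzyme, VAS1 for the valine enzyme, YDR341C for the arginine enzyme and GUS1 for the glutamate enzyme. GRS1 (YBR121C) was 10.23, 10.38 and 10.32 on the arrays labelled WT and 9.60, 10.69 and 10.44 on those labelled gpm1, a difference of -0.060 (SE 0.28, adjusted p = 0.897). VAS1 (YGR094W) was 9.54, 9.57 and 9.52 against 9.08, 9.87 and 9.72, a difference of 0.013 (SE 0.21, adjusted p = 0.973). YDR341C read 10.52, 11.18 and 10.86 on the labelled gpm1 replicates against 10.69, 10.80 and 10.75 on those labelled WT, and GUS1 was 10.87, 11.50 and 11.11 against 10.97, 11.07 and 11.04. Opposite departures of the arrays labelled gpm1 thus lie behind the smallest mean differences of the cytosolic set. Of the 4 genes counted here as giving both forms, 3 (ALA1, GRS1 and VAS1) were below the arrays labelled WT on replicate 1. Of the other 16 cytosolic genes 2 were, YDR341C and GUS1. Whether any of the 16 also serves mitochondria was not checked. HTS1, the remaining gene with both products, was not. The median on replicate 1 was -0.51 over the 4 genes and 0.32 over the 16. With 4 genes this is a description.

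Among the mitochondrial enzymes, DIA4 (YHR011W), for the probable mitochondrial serine enzyme, had the largest difference. The arrays labelled WT read 7.62, 7.71 and 7.63, against 5.92, 6.52 and 8.05 on labelled gpm1 replicates 1, 2 and 3. The log2 difference was -0.82 (SE 0.51, limma adjusted p = 0.344), with an SD of 1.10 among the arrays labelled gpm1 and of 0.050 among those labelled WT. On replicate 1 its signal lay under the background percentile of 6.10, and on replicate 3 it was above all arrays labelled WT, so the mean stands for no single array.

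AIM10, MSR1 and MSY1 had the same arrangement, low on replicates 1 and 2 and high on replicate 3. AIM10 (YER087W), for a predicted mitochondrial proline enzyme, was 8.14, 8.24 and 8.25 on the arrays labelled WT and 6.81, 7.62 and 8.51 on those labelled gpm1, a difference of -0.56 (SE 0.40, adjusted p = 0.399). MSR1 (YHR091C), for the arginine enzyme, was 8.01, 8.23 and 8.12 against 7.02, 7.46 and 8.38, a difference of -0.50 (SE 0.33, adjusted p = 0.369). MSY1 (YPL097W), for the tyrosine enzyme, was 8.60, 8.74 and 8.70 against 7.61, 8.14 and 9.12, a difference of -0.39 (SE 0.36, adjusted p = 0.510). In all 3 genes the arrays labelled gpm1 lay on both sides of those labelled WT.

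SLM5 (YCR024C), for the asparagine enzyme, was 7.89, 7.95 and 7.92 on the arrays labelled WT and 7.36, 7.30 and 8.23 on those labelled gpm1, a difference of -0.29 (SE 0.25, adjusted p = 0.481). MSE1 (YOL033W), for the enzyme that loads glutamate, was 8.12, 8.15 and 8.11 against 7.20, 7.96 and 8.50, a difference of -0.24 (SE 0.31, adjusted p = 0.637). Replicates 1 and 2 were both low for these genes too, and 6 mitochondrial genes in all were below the arrays labelled WT on replicate 2: DIA4, AIM10, MSR1, MSY1, SLM5 and MSE1.

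**Figure D2:**
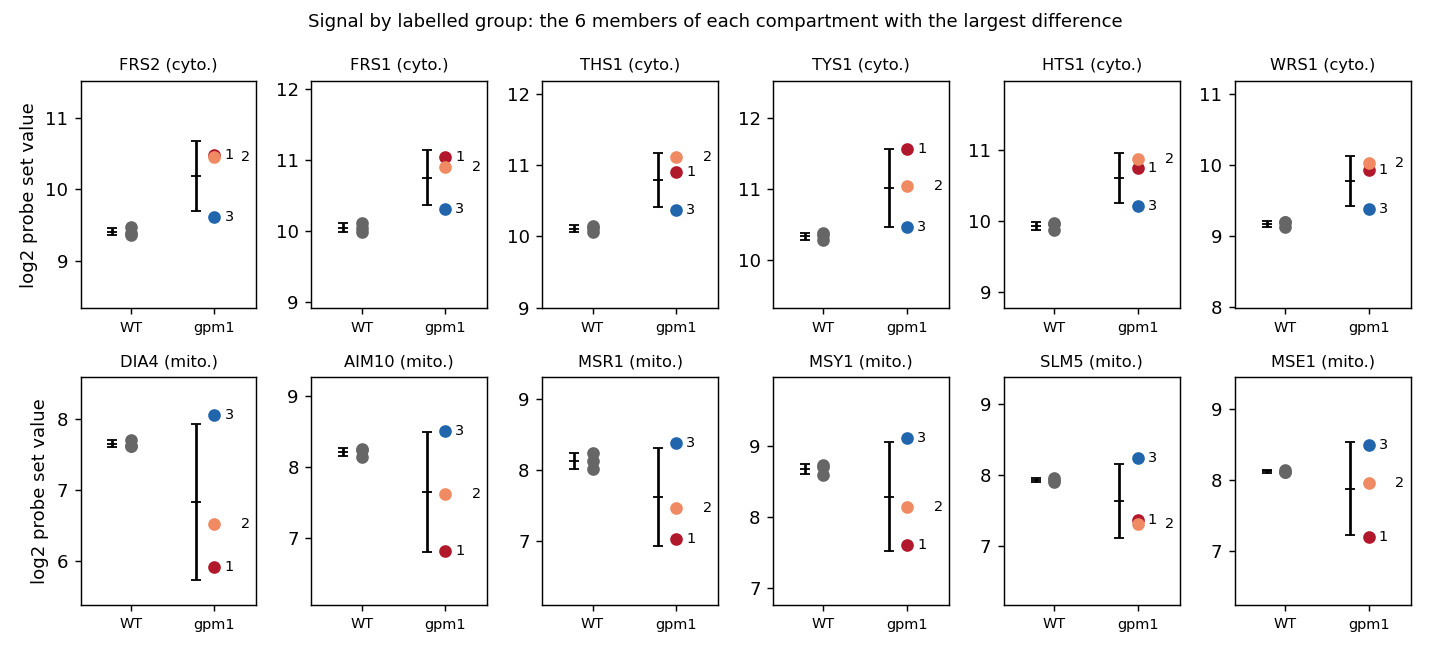
Log2 probe set values of the 6 cytosolic (top) and 6 mitochondrial (bottom) genes with the largest log2 difference, by labelled group; points are arrays, numbers mark the replicate labelled gpm1, and bars are the mean with SD (n = 3), each panel spanning the same height in log2 units. In the top row replicate 3 is the labelled gpm1 array nearest to WT, and in the bottom row it is the one above WT.

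A further 6 mitochondrial genes, MSD1, MSF1, MSM1, MST1, MSW1 and ISM1, were above the arrays labelled WT on replicate 2 and, like the whole set, below them on replicate 1. MST1 (YKL194C), for the threonine enzyme, was 7.73, 7.83 and 7.81 on the arrays labelled WT and 7.13, 7.97 and 8.20 on those labelled gpm1, a difference of -0.021 (SE 0.27, adjusted p = 0.967). MSW1 (YDR268W), for the tryptophan enzyme, was 7.56, 7.63 and 7.61 against 7.12, 7.90 and 7.89, a difference of 0.037 (SE 0.22, adjusted p = 0.920). These 2 genes had the smallest mean differences of the set, with replicate 1 low and the other replicates high. MSF1, for the phenylalanine enzyme, read 6.86, 8.05 and 8.20 on the labelled gpm1 replicates against 7.80, 7.83 and 7.81. ISM1, for the isoleucine enzyme, was 6.67, 7.60 and 7.71 against 7.48, 7.48 and 7.49, and MSM1, for the methionine enzyme, was 7.11, 8.07 and 8.05 against 7.73, 7.85 and 7.77. On replicate 1 these 3 genes stood at -0.96, -0.81 and -0.67 from the labelled WT mean, a larger departure than on the other replicates. MSK1, for the lysine enzyme, which also takes part in the import of a cytosolic tRNA, was 7.58, 8.66 and 9.01 against 8.67, 8.65 and 8.64. NAM2, for the leucine enzyme, which also takes part in splicing of mitochondrial introns, was 7.12, 7.71 and 7.96 against 7.60, 7.75 and 7.66. For MSK1 and NAM2 replicate 2 lay within the range of the arrays labelled WT.

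The set median lay farthest from the labelled WT mean on replicate 1 for the mitochondrial genes (-0.87) and on replicate 2 for the cytosolic genes (0.54). On replicate 1, 5 mitochondrial genes (DIA4, AIM10, MSR1, MSK1 and MSY1) were at least 2-fold below the labelled WT mean, as were 6.53% of all genes, and 2 cytosolic genes (TYS1 and FRS2) were at least 2-fold above it, as were 4.96%. On replicate 2 it was 1 mitochondrial gene lower, DIA4, where 3.96% of all genes were, and 2 cytosolic genes higher, FRS2 and THS1, where 3.01% were. On replicate 3 no synthetase gene reached 2-fold, where 0.936% of all genes were 2-fold lower and 0.0184% higher. The mitochondrial values on replicate 3 lay between 0.23 and 0.44 above the labelled WT mean, a narrow range beside that of -1.73 to -0.43 on replicate 1.

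The spread among the arrays labelled gpm1 was wider for mitochondrial than for cytosolic genes. The median SD was 0.612 for the mitochondrial and 0.336 for the cytosolic genes, where it was 0.248 over all genes. Among the arrays labelled WT the 2 sets had about the spread of all genes, with median SDs of 0.0533, 0.0502 and 0.0484 in that order. The SEs of the mitochondrial log2 differences ran from 0.22 to 0.51.

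Without labelled gpm1 replicate 3, 10 cytosolic genes passed as higher and 0 as lower, and 5 mitochondrial genes passed as lower and 0 as higher. In that fit 21.6% of all genes passed as higher and 19.5% as lower. The cytosolic genes were FRS2 at 1.06, TYS1 at 0.96, FRS1 at 0.93, THS1 at 0.90, HTS1 at 0.87, WRS1 at 0.81, SES1 at 0.57, KRS1 at 0.52, DPS1 at 0.44 and YHR020W at 0.30, with limma adjusted p-values between 0.00093 and 0.025. The mitochondrial genes were DIA4 at -1.43, AIM10 at -0.996, MSR1 at -0.88, MSY1 at -0.80 and SLM5 at -0.59, with adjusted p-values between 0.0026 and 0.025. The median was 0.33 for the cytosolic and -0.45 for the mitochondrial set. Without labelled gpm1 replicate 1 instead, the mitochondrial median was 0.17, with 9 of 14 genes above 0. The cytosolic median was 0.34 with 20 of 20 above 0, and no gene of either set passed. Of all 5449 genes tested, 2800 were above 0 in that fit and only 60 passed. The direction of the mitochondrial set thus rests on replicate 1, while the cytosolic set had a positive median with any 1 array left out.

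Setting the enzymes of the same amino acid side by side gave 15 pairs over 14 amino acids, since FRS1 and FRS2 are both paired with MSF1. The log2 difference of the cytosolic gene exceeded that of the mitochondrial gene in all 15 pairs, by a median of 0.58, and the signs were opposite in 13. Without labelled gpm1 replicate 1, 9 of the 14 mitochondrial and 20 of the 20 cytosolic genes were above 0, as were 2800 of all 5449 genes. The count of opposite signs thus rests largely on that array. In that fit the aspartate pair was reversed, with DPS1 at 0.22 and MSD1 at 0.40. The gap was widest for serine (SES1 at 0.48, DIA4 at -0.82), tyrosine (TYS1 at 0.68, MSY1 at -0.39), phenylalanine (FRS2 at 0.78, MSF1 at -0.11) and proline (YHR020W at 0.27, AIM10 at -0.56). It was narrowest for aspartate (DPS1 at 0.26, MSD1 at 0.13), which with tryptophan (WRS1 at 0.61, MSW1 at 0.037) made up the pairs of equal sign.

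By array, the cytosolic gene stood higher than its mitochondrial partner against the arrays labelled WT in 15 of 15 pairs on replicate 1 (median gap 1.24), in 15 of 15 on replicate 2 (median gap 0.68) and in 0 of 15 on replicate 3 (median gap -0.14). The gap for serine was 2.24, 1.77 and -0.11 on replicates 1, 2 and 3, and for tyrosine it was 2.29, 1.24 and -0.32. For arginine, whose genes YDR341C and MSR1 are paralogues from a genome duplication, it was 0.88, 1.10 and -0.14. Pairs share their arrays and are not independent, and the gap was not tested, since 3 against 3 arrays give an exact p of at least 0.1. Whether paralogues share signal was not checked, as the sequences of the probes were not used.

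**Figure D3:**
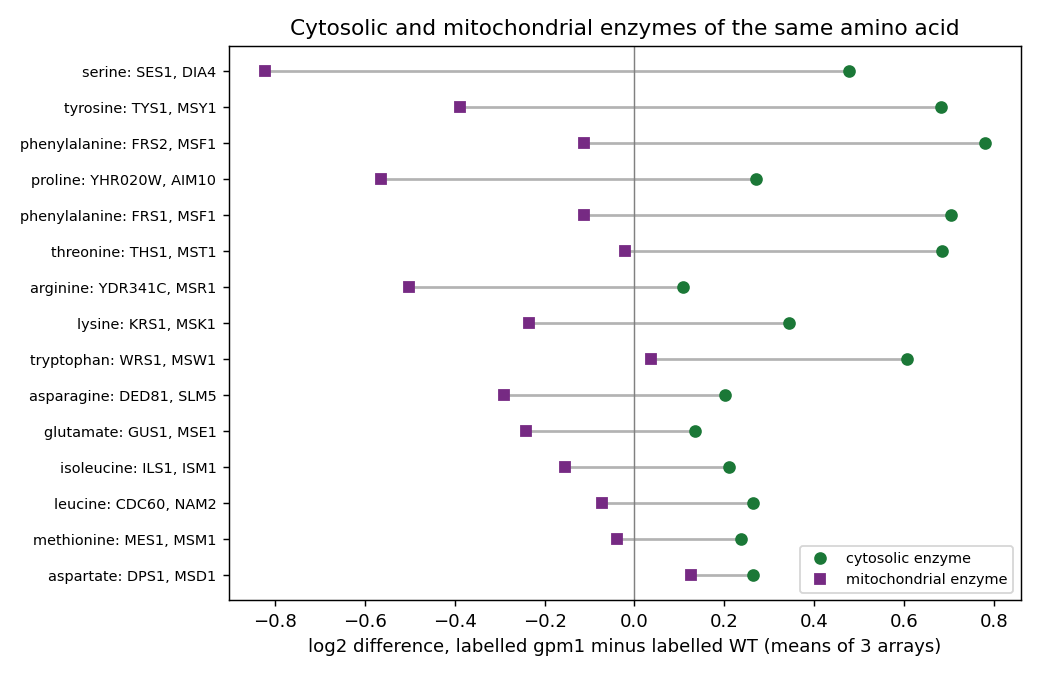
Log2 difference between the labelled groups (labelled gpm1 minus labelled WT, means of 3 arrays each) for the cytosolic (circle) and mitochondrial (square) enzyme gene of each amino acid, ordered by the gap between them. The circle lies right of the square in all 15 pairs, by 1.30 for serine and 0.14 for aspartate at the ends.

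Control values were also read on each array. The mean of 12 probe sets for the poly-A control transcripts, which are added to the RNA before labelling, was 5.83, 6.15 and 6.14 on the arrays labelled WT and 7.10, 6.61 and 6.12 on labelled gpm1 replicates 1, 2 and 3. Replicate 1, on which the mitochondrial genes were lowest, thus had the highest poly-A controls, and their part in the result was not tested. The mean of 9 hybridisation control probe sets was 8.86, 8.89 and 8.60 on the arrays labelled WT. It was 9.13, 8.73 and 9.05 on labelled gpm1 replicates 1, 2 and 3. The 3' probe set of the actin gene ACT1 exceeded its 5' probe set by 0.58, 0.49 and 0.46 on the arrays labelled WT and by 0.65, 0.47 and 0.46 on those labelled gpm1. By this 3' to 5' measure, replicates 2 and 3 were within the range of the arrays labelled WT and replicate 1 was above it.

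Other genes of tRNA loading and use were read from 5 lists, and 0 genes of any of them passed with all 6 arrays. The charging list held ARC1, for the cofactor that binds the methionine and glutamate enzymes, and GRS2, a paralogue of GRS1. Its other 4 genes are for mitochondrial steps after loading. The median over its 6 genes was -0.12, and -0.18, -0.15 and -0.016 on replicates 1, 2 and 3. The 4 mitochondrial genes, named after their values were seen, were not alike. From the labelled WT mean HER2 stood at -0.57, -0.13 and 0.27 and PET112 at -0.45, -0.20 and 0.24 on these replicates. GTF1 ran the other way, at 0.55, 0.086 and -0.13, and FMT1 was under the background percentile of 6.10 on all 6 arrays. ARC1 was 10.53, 10.52 and 10.61 on the arrays labelled WT and 11.24, 11.25 and 10.58 on those labelled gpm1, a log2 difference of 0.47 (SE 0.19, limma adjusted p = 0.223). GRS2 was 7.68, 7.72 and 7.77 against 7.46, 7.46 and 7.41, a difference of -0.29 (SE 0.080, adjusted p = 0.192). Against the labelled WT mean, ARC1 stood at 0.68, 0.69 and 0.022 on replicates 1, 2 and 3. For the enzymes it binds, MES1 stood at 0.044, 0.46 and 0.21, and GUS1 at -0.16, 0.47 and 0.086. On replicate 1 ARC1 was thus higher than both, and GRS2 was low on all 3 replicates.

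Genes that modify cytosolic tRNA had a median difference of 0.50 over 40 measured members, with 27 above all arrays labelled WT on all 3 arrays labelled gpm1, against 19.2% of all genes. The list median was 0.50, 0.71 and 0.17 on replicates 1, 2 and 3. TRM11 and TRM10, for tRNA methyltransferases, had the smallest p, at 0.42 (SE 0.096, adjusted p = 0.142) and 0.53 (SE 0.13, adjusted p = 0.174). Without replicate 3, 25 of the 40 passed as higher and 0 as lower, where 21.6% of all genes passed as higher. For tRNA processing and export the median was 0.15 over 17 genes, with TRZ1, for the 3' end nuclease, at 0.58 (SE 0.14, adjusted p = 0.169) and LOS1, for the tRNA exporter, at 0.35 (SE 0.093, adjusted p = 0.185), and 7 of the 17 passed as higher and 1 as lower without replicate 3, where 21.6% and 19.5% of all genes did.

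Mitochondrial translation factors and mitochondrial tRNA modification genes were arranged like the mitochondrial synthetases on replicates 1 and 3. On replicate 2, 9 of the 13 genes lay below all arrays labelled WT, where 6 of the 14 synthetases did. The median over the 13 genes was -0.47, -0.19 and 0.38 on replicates 1, 2 and 3. Of the 13, 11 lay below all arrays labelled WT on replicate 1 and above them all on replicate 3, where 16.1% of all genes did. Without replicate 3, 2 of the 13 passed as lower and 0 as higher, where 19.5% and 21.6% of all genes did. PUS2, for a mitochondrial pseudouridine synthase, was 6.54, 6.57 and 6.52 on the arrays labelled WT and 5.86, 6.02 and 6.86 on those labelled gpm1, a difference of -0.30 (SE 0.26, adjusted p = 0.487). AIM23, for a mitochondrial initiation factor, had a difference of 0.11 (SE 0.10, adjusted p = 0.506). It was arranged otherwise, at 0.24, -0.035 and 0.13 from the labelled WT mean on replicates 1, 2 and 3.

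Uncharged tRNA is sensed by the kinase Gcn2, which acts through the initiation factor eIF2 and its exchange factor on the making of the activator Gcn4. The median over 13 genes of this route was 0.37, and 0.49, 0.53 and 0.090 on replicates 1, 2 and 3. GCD1 and GCD6, for subunits of the exchange factor, had the smallest p, at 0.50 (SE 0.11, adjusted p = 0.139) and 0.46 (SE 0.14, adjusted p = 0.196). The 3 genes of the list with a difference below 0 were GCN1, GCN2 and GCN4, named after their values were seen. They stood at -0.44 (SE 0.36, adjusted p = 0.453), -0.64 (SE 0.24, adjusted p = 0.210) and -0.14 (SE 0.082, adjusted p = 0.329), so the list median does not stand for the sensor or the activator. Without replicate 3, 9 of the 13 passed as higher and 1 as lower, where 21.6% of all genes passed as higher and 19.5% as lower.

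**Figure D4:**
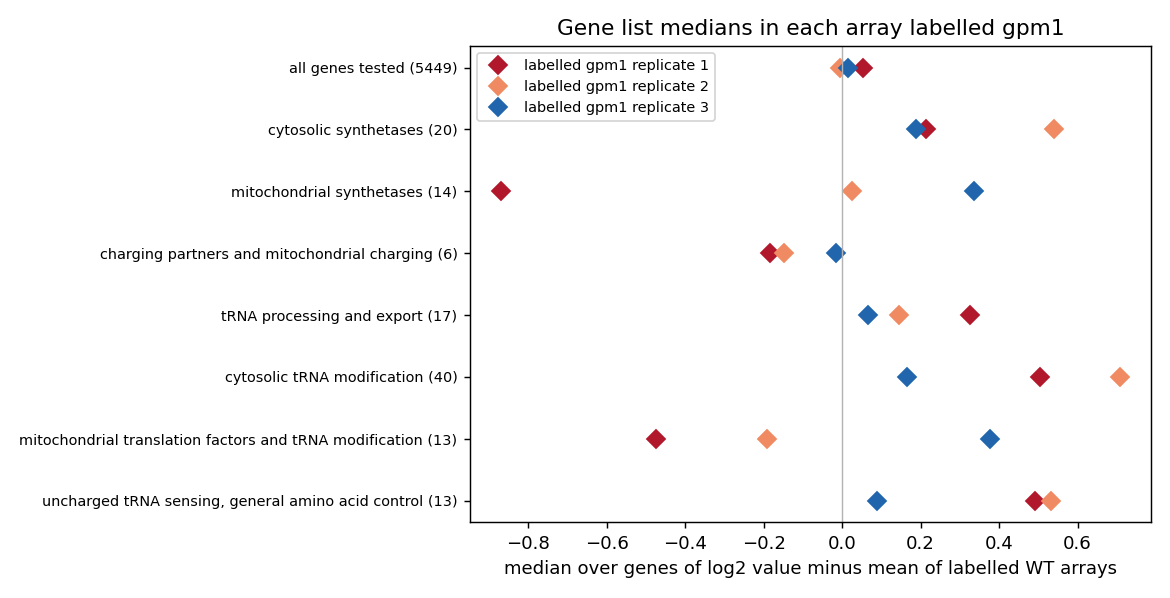
Median over the genes of each list (number of genes in brackets) of the log2 value minus the mean of the 3 arrays labelled WT, for each array labelled gpm1. All genes together stay near 0, and the cytosolic synthetases are above 0 on all 3 arrays. The mitochondrial synthetases run from -0.87 on replicate 1 to 0.34 on replicate 3, and the mitochondrial translation list from -0.47 to 0.38. The charging list runs from -0.18 to -0.016, and its median covers mitochondrial and other genes that are arranged in unlike ways.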

How the data were processed

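PLIER was used by the authors to turn probes into probe set values, per the submitters' processing notes. Deposited values were read as log2, from their range of 4.88 to 13.12. No source used here gives the base of the log, an offset or the scaling between arrays, and an offset would make folds of dim genes smaller. The platform annotation named the probe sets through gene IDs found in the S. cerevisiae R64 gene table, used for names only, and the probe set with the highest mean was kept per gene. Background came from 1747 listed probe sets whose gene IDs are not in that table.

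Labelled gpm1 was compared with labelled WT by limma 3.58.1 (lmFit, eBayes, default prior, R 4.3.3), two-sided, with Benjamini-Hochberg adjustment over 5449 genes and a threshold of 0.05. Members, lists and settings were chosen with earlier results of these data known, so lists are described by counts and medians. All members could be named. Values in every array were given for the 6 genes of each compartment with the largest difference, the 2 with the smallest, the 4 widest pairs and pairs of opposite sign, and from each related list the 2 genes with the smallest p were named. Alternatives were quantile normalization, centring, an offset of 16, filters on dim genes, probe set means, a trend and robust prior, array weights, a replicate block and leaving out each array. The compartment, enzyme class and double service of each gene come from textbook knowledge. Plots used matplotlib 3.10.9 (Python 3.11.15).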

Additional observations from a re-analysis of the deposited data

How the results depend on the processing

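The count of all genes past the threshold, 44, was 1732 with array weights and ranged from 11 to 2240 when 1 array was left out (2240 without labelled gpm1 replicate 3, 11 to 19 without labelled gpm1 replicate 2 or any 1 array labelled WT). For the cytosolic synthetases the count of 0 was 12 with array weights, all higher, and 0 to 10 with 1 array left out. For the mitochondrial synthetases it was 4 with array weights, all lower, and 0 to 5. Array weights were estimated at 3.08 to 5.61 on the arrays labelled WT, and at 0.14, 0.69 and 0.14 on labelled gpm1 replicates 1, 2 and 3, so that fit leans on replicate 2. The cytosolic median ranged from 0.15 to 0.34 with 1 array left out, the mitochondrial median from -0.45 to 0.17 (0.17 without labelled gpm1 replicate 1), and the gap between them from 0.16 to 0.77. With 1 array left out the sign turned for ALA1 (-0.25 to 0.083), YDR341C (-0.057 to 0.27), GUS1 (-0.037 to 0.28), GRS1 (-0.28 to 0.26), VAS1 (-0.14 to 0.25), MSD1 (-0.021 to 0.40), MSE1 (-0.55 to 0.10), MSF1 (-0.36 to 0.31), MSK1 (-0.53 to 0.18), MSM1 (-0.20 to 0.28), MST1 (-0.24 to 0.30), MSW1 (-0.095 to 0.30), ISM1 (-0.34 to 0.17) and NAM2 (-0.25 to 0.17), none of which passed in these fits. With array weights the sign turned for ALA1 (0.0068), GRS1 (0.20), MSF1 (0.087), MSM1 (0.14), MST1 (0.097) and ISM1 (0.0057), with quantile normalization for VAS1 (-0.041) and MST1 (0.0062), and with centring for VAS1 (-0.0074). Leaving no array out, 280 of the 305 values of single members over the alternatives kept their sign and their side of the threshold, 16 passed as called only with array weights and 9 turned. Whether the same replicate numbers pair the arrays cannot be told from these values. Deviations of same-numbered arrays from their group means correlated at 0.051, 0.024 and -0.13 over genes. Those of arrays with unlike numbers correlated at -0.24 to 0.18. With the replicate number as a block 0 synthetase genes passed, and 31 genes in all. The 3 arrays per group and the signal of DIA4 near background on 1 array limit the precision.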

Other observations

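Synthetases fall into a pair of structural classes that differ in the fold of the catalytic domain, and each class holds enzymes of both compartments. Taken as labelled gpm1 minus labelled WT, the median log2 difference was 0.24 over 9 cytosolic class I genes and 0.34 over 11 cytosolic class II genes. For the mitochondrial enzymes it was -0.15 over 7 class I genes and -0.24 over 7 class II genes. On labelled gpm1 replicate 1 the medians against the arrays labelled WT were 0.044 and 0.36 for the cytosolic and -0.81 and -0.96 for the mitochondrial classes I and II. Compartment therefore separated the medians by more than class did on that array, as a description of these genes with no test. On replicate 3 the medians of classes I and II were 0.18 and 0.20 for the cytosolic and 0.29 and 0.39 for the mitochondrial genes. The order of the compartments was thus turned there, and their medians lay closer together than on replicate 1. The paralogues GRS1 and GRS2 also differed in their arrangement, with GRS1 at -0.70, 0.39 and 0.14 and GRS2 at -0.27, -0.27 and -0.32 against the arrays labelled WT on replicates 1, 2 and 3.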
